A study of Rattus norvegicus with 5 samples.

Results

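The data compared DNA enriched by an antibody against N6-methyladenine (6mA) in rat Astrocytes with that in neural stem cells (NSCs) by direct pairing of their immunoprecipitated libraries. The members are every region that the authors listed in either direction, without any selection by size. There were 53776 such regions, 21671 higher in Astrocytes (below also regions for Astrocytes) and 32105 higher in NSCs, of 545424 rows in all peak and comparison lists of the series. The NSCs were the SCR022 line of rat hippocampal stem cells, and the third cell type of the series, Neurons, was used here as a library that the comparison did not involve, going by the names of its lists. The labels name the Astrocytes and the Neurons by cell type alone and give no strain, age, treatment or route by which they were obtained. The DNA of all of them was sonicated, ligated to adapters, denatured, bound by the antibody and released with a 6mA nucleotide. Input libraries without enrichment have samples for NSCs and Neurons. The authors' Astrocyte peak list names an astrocyte input as its background, which has no sample here and was not analysed here. Each cell type had 1 immunoprecipitated library, so the spread between replicates is unknown and no test was run. The data hold no RNA, so the cell identities could not be checked against markers, and whether an enriched region carries 6mA was not checked by another measure.

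In 6mA a methyl group sits on the nitrogen at position N6 of adenine. The mark is abundant in bacteria, while its amount and its enzymes in mammalian DNA are debated; N6amt1 has been proposed as a writer and Alkbh1 as an eraser. Neural stem cells of the hippocampus give rise to neurons and astrocytes, and astrocytes take up glutamate, supply neurons with metabolites and contact vessels and synapses. The series title names N6amt1 and Txnrd3, a thioredoxin reductase of the selenium-dependent redox system.

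Both immunoprecipitated libraries were of nearly equal depth, with 15767015 reads in Astrocytes and 15760246 in NSCs, of which 13866225 and 13785430 mapped uniquely. Neurons had 16095308 reads and 13930646 uniquely mapped ones. Against input, Astrocytes had 116091 peaks and NSCs 121816. Positions are those of the files, whose genome build is not stated in any source used here. Fold and score are the authors' values per region: the fold is the enrichment of 1 immunoprecipitated library over the other, and the score is 10 times the −log10 of the peak caller's p, at least 50 in both lists. A range in parentheses after a share is its exact Clopper-Pearson 95% interval. It covers nothing but counting error, as amplified reads are not independent molecules.

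Regions in 3 promoters show the kind of locus the comparison returned, and their reference promoter windows (RefSeq, GRCr8, 250 bases before to 50 after the gene start) are printed for that reason. Txnrd3 is the gene of the series title, Olr29, an olfactory receptor gene, had the largest fold of any named gene with a promoter region higher in Astrocytes, and Prr11, a gene active in dividing cells, the same for NSCs. Capitals mark every match of GATC, or of the group made of CAGGC together with CAGGT plus GAGGC along with GAGGT, on either strand. Reverse complements are therefore in capitals too, and matches that touch or overlap run together. The windows lie on chromosome 4 (123629518 to 123629817, plus strand), chromosome 1 (149727321 to 149727620, minus strand) and chromosome 10 (72418226 to 72418525, minus strand) of GRCr8. Since the files' build differs or is unknown, the listed region cannot be placed inside the window.
Txnrd3: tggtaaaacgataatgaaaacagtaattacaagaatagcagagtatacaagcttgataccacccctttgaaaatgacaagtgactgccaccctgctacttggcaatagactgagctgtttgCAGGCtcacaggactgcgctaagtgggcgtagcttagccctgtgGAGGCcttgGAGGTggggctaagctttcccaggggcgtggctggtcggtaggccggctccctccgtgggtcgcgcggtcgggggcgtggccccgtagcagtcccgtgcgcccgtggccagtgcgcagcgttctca
Olr29: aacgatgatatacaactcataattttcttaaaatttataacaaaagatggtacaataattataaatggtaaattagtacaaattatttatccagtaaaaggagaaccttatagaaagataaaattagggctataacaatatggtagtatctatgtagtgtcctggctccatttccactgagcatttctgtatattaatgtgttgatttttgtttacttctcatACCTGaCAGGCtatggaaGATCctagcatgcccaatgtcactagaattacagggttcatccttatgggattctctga
Prr11: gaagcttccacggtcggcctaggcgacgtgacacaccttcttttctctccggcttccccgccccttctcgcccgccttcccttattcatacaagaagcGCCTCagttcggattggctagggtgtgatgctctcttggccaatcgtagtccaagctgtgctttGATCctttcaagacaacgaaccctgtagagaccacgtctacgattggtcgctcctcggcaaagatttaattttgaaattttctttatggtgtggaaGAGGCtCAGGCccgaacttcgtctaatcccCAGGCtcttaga
The Txnrd3 window had 58% G and C, 18 CpG, 0 GATC and 3 matches of the other motif group. In Olr29 the same window had 31.7% G and C, 1 CpG, 1 GATC and 2 matches, and in Prr11 52% G and C, 18 CpG, 1 GATC and 4 matches. Across all 19005 protein-coding promoter windows in the table, 45.8% held GATC (45.1 to 46.6) and 94.7% held at least 1 match of the other group (94.4 to 95.0). Among genes with a promoter region higher in Astrocytes, 359 windows were matched and 45.4% held GATC (40.2 to 50.7). Among those with one higher in NSCs, 416 windows were matched and 43.0% held GATC (38.2 to 47.9). The other motif group was present in 96.1% and 94.7%. Median G and C content was 57.7% in both directions against 55.3% in all windows, so neither motif nor composition separated the directions.

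Txnrd3 was listed as higher in Astrocytes at 2 places and as higher in NSCs at 0. In the authors' deposited table its promoter region, on a CpG island shore (chromosome 4, 121611357 to 121611720), had a fold of 11.96 and a score of 51.8, close to the minimum of 50. Neither Astrocytes nor NSCs had a peak over input there, while Neurons had one with a fold over input of 13.3 in the authors' deposited table. The intronic region (121620375 to 121620798) had a fold of 14.6 and a score of 74.6 in the authors' deposited table, and lay in an Astrocyte peak (9.62 over input) and a Neuron peak (12.1). As far as Astrocytes and NSCs go, the promoter region was thus found in the direct comparison alone. The intronic region was also a peak of Astrocytes over input and not of NSCs. That peak comes from the same Astrocyte library, so it is no separate support. N6amt1 had 0 regions in either direction.

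The first question was how large the differences were and whether they came from places that were peaks over input. Of all regions, 40.3% were higher in Astrocytes (39.9 to 40.7), covering 9.94 Mb against 13.9 Mb for NSCs. Median folds were 9.91 in Astrocytes (quartiles 7.83 and 11.96) and 9.30 in NSCs (7.71 and 11.3) in the authors' deposited table. Folds over 20 were reached by 157 and 184 regions. Scores of 100 or more were reached by 1813 regions for Astrocytes (8.37%) and 3142 for NSCs (9.79%), and median widths were 416 and 382 bp. Beside the number of regions, both directions therefore had much the same sizes. The lists may differ in how they were made, which limits comparisons of their numbers, widths and shares. Exact coordinates of an own peak over input were held by 80.2% of regions for Astrocytes and 32.5% of those for NSCs.

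Regions fell into 3 kinds by the peaks over input they overlapped by at least 1 bp. The most frequent kind lay in a peak of its own cell type and in none of the other, with 14478 regions for Astrocytes (66.8%) and 21362 for NSCs (66.5%). A second kind lay in peaks of both cell types, 2911 (13.4%) and 3218 (10.0%). It was wider, with median widths of 694 and 671 bp, and had smaller direct folds, with medians of 5.70 and 5.76 in the authors' deposited table. At these shared places the ratio of the fold over input in the own cell type to that in the other had a median of 1.93 in Astrocytes and 1.81 in NSCs. The libraries behind both kinds of fold are the same, so nothing is read from the order of the folds over input at these places. The third kind had no peak of its own cell type: 4282 regions for Astrocytes (19.8%) and 7525 for NSCs (23.4%), with median scores of 56.3 and 55.7, near the minimum.

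Seen from the peaks, 14.98% of Astrocyte peaks over input were listed as higher in Astrocytes and 20.2% of NSC peaks as higher in NSCs. Among peaks without a peak of the other cell type the shares were 28.4% (28.03 to 28.8) of 50934 Astrocyte peaks and 37.6% (37.2 to 38.0) of 56787 NSC peaks. Most peaks found in only 1 of the cell types were thus not listed as different when the libraries were compared directly. Where both cell types had a peak, 4.47% and 4.98% were listed. Strong peaks were not the ones listed most often: among Astrocyte peaks the share went from 8.06% in the lowest score decile to 18.3% in the sixth decile and 14.1% in the highest. NSC peaks were listed in 20.5% of cases in the lowest decile, 23.5% in the sixth and 11.6% in the highest.

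**Figure D1:**
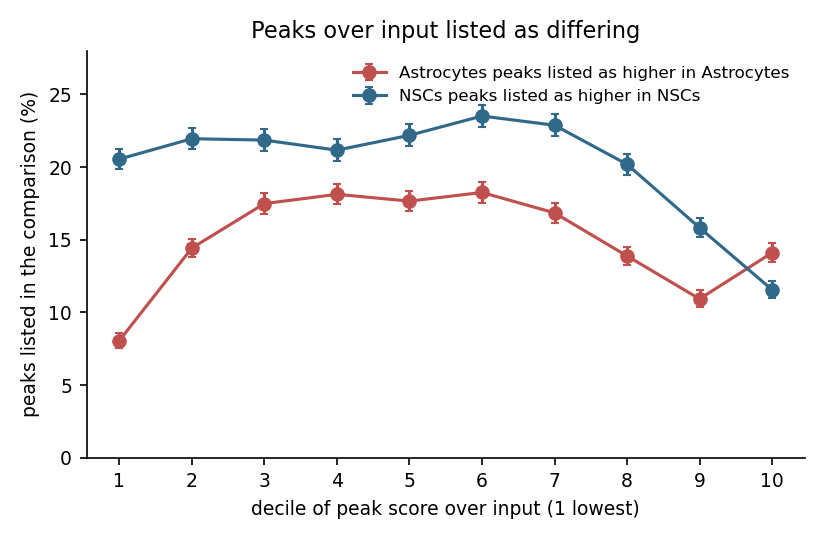
Share of peaks over input (percent) listed as higher in their own cell type, by decile of the authors' peak score, for 116091 Astrocyte and 121816 NSC peaks. Points are shares and bars exact 95% intervals. NSC peaks were listed more often than Astrocyte peaks in every decile but the highest, where 11.6% and 14.1% were listed. The lists of both directions may differ in how they were made.

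Neurons, whose library had no part in the comparison, gave a readout of the same places. A Neuron peak lay on 34.1% of the regions higher in Astrocytes (33.5 to 34.8) and on 28.2% of those higher in NSCs (27.7 to 28.7). By kind the shares were 29.98% and 26.9% for regions in a peak of their own cell type only, and 95.3% and 88.3% for those in peaks of both. Regions with no peak of their own cell type had a Neuron peak in 6.66% and 6.39% of cases. For comparison, 33.4% of Astrocyte peaks and 31.1% of NSC peaks without a peak of the other cell type overlapped a Neuron peak. Among those, listed peaks had one less often than unlisted peaks, 29.98% against 34.7% in Astrocytes and 27.0% against 33.6% in NSCs. Places higher in Astrocytes were thus shared with Neurons somewhat more often than places higher in NSCs, by 3.1 points where only the own cell type had a peak. All peaks without a peak of the other cell type had a gap in the same direction, 33.4% against 31.1%. For peaks of the own cell type only, a gap in this direction is therefore not particular to the listed regions. Unlisted ones had a smaller gap, 34.7% against 33.6%. Where both cell types had a peak, all peaks showed no such gap, with 81.6% in Astrocytes and 81.7% in NSCs. The listed regions of that kind had 95.3% and 88.3%, and the reason was not tested.

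By annotation class, most regions lay outside any gene class of the files, 58.0% of those higher in Astrocytes and 60.8% of those higher in NSCs. Promoters held 826 regions for Astrocytes (3.81%, 3.56 to 4.08) and 1045 for NSCs (3.25%, 3.06 to 3.45), and introns held 36.3% and 33.9%. CpG islands, the stretches rich in CpG at many promoters, held 104 (0.480%, 0.392 to 0.581) and 106 (0.330%, 0.270 to 0.399). The lists shared 0 islands, but the number of islands in the annotation is not known here, so nothing is read from that. Islands and shores together held 1.79% and 1.43%. Exons held 1075 (4.96%) and 1291 (4.02%). The promoter, intron, exon, island and shore shares exceeded those among the peaks of the same cell type over input, where promoters held 3.02% in Astrocytes and 2.97% in NSCs, exons 2.89% and 2.78%, and CpG islands 0.164% and 0.149%.

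The surplus in exons, promoters and CpG islands sat mainly in regions with no peak of their own cell type. Of these regions, 9.69% of those higher in Astrocytes and 7.47% of those higher in NSCs lay in exons, against 3.74% and 2.89% of the regions in a peak of their own cell type only. Promoters held 6.07% and 4.31% against 3.25% and 2.89%, and CpG islands 1.47% and 1.01% against 0.269% and 0.126%. Gene bodies held 43.3% and 41.6% against 35.9% and 33.0%. In NSCs, the regions in a peak of NSCs only had nearly the class shares of all NSC peaks. What sets these regions of low score apart was not tested.

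**Figure D2:**
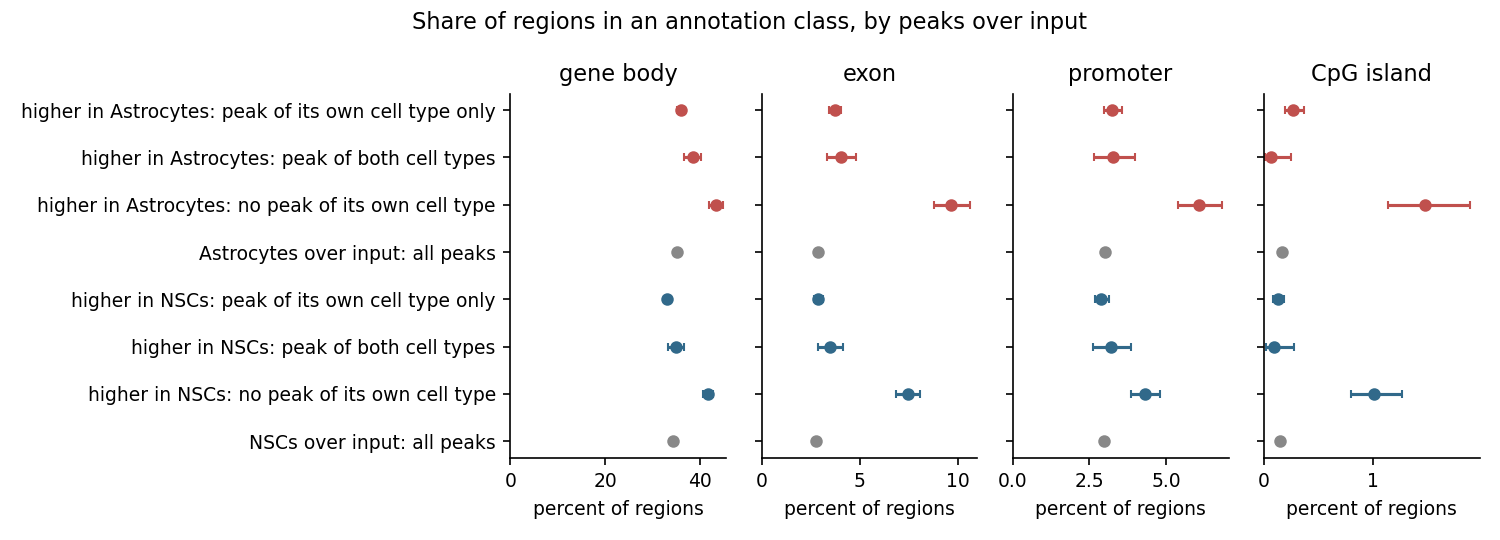
Percent of regions in gene bodies, exons, promoters and CpG islands for each direction and each kind of overlap with peaks over input, with all peaks over input in grey. Points are shares and bars exact 95% intervals; the regions with no peak of their own cell type had the highest share in all 4 classes, such as 9.69% in exons for Astrocytes.

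Among named genes, the regions higher in Astrocytes with the largest folds lay mostly in introns. Rab43, a small GTPase of membrane traffic, led with a fold of 31.9 and a score of 200.4 in the authors' deposited table (chromosome 4, 119709513 to 119710074, intron). There Astrocytes had a fold over input of 20.4, Neurons one of 8.24, and NSCs no peak, in the authors' deposited table. Ankrd55, an ankyrin repeat gene, followed with a fold of 31.8 in the authors' deposited table (chromosome 2, 44149546 to 44150159, intron), without a Neuron peak. In the authors' deposited table the next folds were 26.6 in Ash1l, a histone methyltransferase, 25.3 in Ube4b, a ubiquitin chain factor, 25.1 in Syne2, which links nucleus and cytoskeleton, and 24.8 in Poln, a DNA polymerase. Olr29 (24.6, promoter), Slco5a1 (24.2), Erp27 (23.9), an endoplasmic reticulum protein, and Scaper (23.9) completed these 10 genes in the authors' deposited table. All 10 lay in an Astrocyte peak and in no NSC peak, which the choice by fold of the same libraries largely fixes. Of these 10, 8 also lay in a Neuron peak, against 34.1% of all regions higher in Astrocytes. Of the 10 leading genes by fold for NSCs, 5 did, against 28.2% of all regions higher in NSCs. Nothing is read from so few genes.

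Among named genes with a region higher in NSCs, Dbr1, the enzyme that opens intron lariats, led with a fold of 36.2 and a score of 313 in the authors' deposited table (chromosome 8, 107827257 to 107827459, intron). NSCs had a fold over input of 30.5 there, and neither Astrocytes nor Neurons had a peak. Man1a2, a mannosidase of protein glycosylation, had a fold of 31.9 (chromosome 2, 202935994 to 202936664, intron) in the authors' deposited table. Lnpep, an aminopeptidase, and Ryk, a Wnt receptor, both had 30.6 in the authors' deposited table, and the Ryk region (chromosome 8, 111377438 to 111378023) touched an exon. Sparcl1, an extracellular protein listed among astrocyte markers, had a fold of 29.2 and a score of 324 (chromosome 14, 7005365 to 7006036, intron) in the authors' deposited table. An astrocyte marker gene was thus among the places with the largest fold for NSCs, with a fold over input of 28.8 in NSCs and no peak in Astrocytes or Neurons. Tspan13 (29.2), Adamdec1 (28.1, exon), Abcb11, the bile salt pump (27.9), Gria4, an AMPA glutamate receptor subunit (27.9, exon), and Trappc9 (25.8) followed in the authors' deposited table.

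Ranking by score picked other places, mostly wide peaks of all 3 cell types. Gab2, a signalling adaptor, had the highest score for Astrocytes, 356, with a fold of only 3.38 over 2356 bp in the authors' deposited table (chromosome 1, 162246370 to 162248725, intron). Its folds over input were 61.6 in Astrocytes, 17.0 in NSCs and 60.4 in Neurons in the authors' deposited table. Slc1a1, a neuronal glutamate transporter, was next with a score of 325 and a fold of 5.71 (chromosome 1, 247002568 to 247004911, intron) in the authors' deposited table. Its folds over input were 104 in Astrocytes, 48.0 in NSCs and 109 in Neurons. At both genes the Neuron fold was nearly equal to that of Astrocytes. Nothing is read from the lower NSC folds, since these genes were picked by the comparison of the same libraries. Abca13, Akap9, Ndufs4, Tmc5, Proser2, Filip1l, Gabrr3 and Tmprss15 followed with scores from 299.7 to 226 in the authors' deposited table. For NSCs, Lamtor3, a scaffold of the lysosomal mTOR pathway, led among named genes with a score of 471 and a fold of 14.3 (chromosome 2, 243168756 to 243169650, exon and intron) in the authors' deposited table. Its folds over input were 59.7 in NSCs, 14.8 in Astrocytes and 19.0 in Neurons. In the authors' deposited table Caln1 (433), Adgrl4 (428), Abcc8 (416), Rab8a (391), Prkce (388), Gpc5 (371), Adgrd1 (362), Bpifa3 (345) and Foxn3 (331) followed by score.

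The highest 100 regions by fold and by score differed in kind. Of the 100 with the largest fold, 98 in each direction lay in a peak of their own cell type only, though these peaks come from the same libraries. Of the 100 with the highest score, 47 for Astrocytes and 57 for NSCs lay in peaks of both cell types. A Neuron peak lay on 59 and 45 of the regions ranked by fold, and on 87 and 82 of those ranked by score. Chromosome 1 held 5 of the 100 Astrocyte regions and 11 of the 100 NSC regions with the largest fold.

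In promoters, Olr29, Mzf1, a zinc finger factor of myeloid cells (21.3), Lgr4, a receptor of R-spondins in Wnt signalling (19.9), and Clp1, an RNA kinase (18.3), were among the genes with the largest folds for Astrocytes in the authors' deposited table. The Lgr4 region (chromosome 3, 101052145 to 101052521) lay in a CpG island and reached the exon. The Mzf1 region lay on an island shore. For NSCs the largest promoter folds were 22.6 in Prr11 (chromosome 10, 74415144 to 74415590), 22.02 in Slc18b1, 19.9 at Mir362 and Mir501, and 18.6 in Hmgcll1 in the authors' deposited table. Among exon regions, Actr3, a subunit of the actin-branching Arp2/3 complex (22.6), Tmc5 (22.4), Lgr4, Dzank1 (19.5) and Hk2, a hexokinase (19.1), led for Astrocytes in the authors' deposited table. Ryk, Adamdec1, Gria4, Zfp839 (22.6) and F8, coagulation factor VIII (21.3), led for NSCs in the authors' deposited table. The F8 region also led in CpG islands and shores for NSCs, before the shore regions of Efcab11 (19.0), Ak3 (18.8) and the Mypop promoter next to Nanos2 (18.3) in the authors' deposited table. For Astrocytes, Ccdc69 (20.2), Lgr4 (19.9), Tdrd6 and Ppib (17.3 each) followed Mzf1 in islands and shores in the authors' deposited table. The Dzank1 region was the one among these with no peak over input in any cell type.

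MicroRNA genes, described after their values were seen, were 6 with a region higher in Astrocytes and 16 with one higher in NSCs, of which 5 and 9 had it in the promoter. Of the 466 miRNA genes in the RefSeq table, 6 (1.29%) and 15 (3.22%) were matched by symbol and chromosome with a region, and 5 (1.07%) and 9 (1.93%) with one in the promoter, where protein-coding genes had 1.92% and 2.23% in promoters. Nothing is read from these counts about miRNA genes as a group. The mature sequences below (RefSeq, GRCr8) show which seeds these loci carry, with the seed, bases 2 to 8, in capitals. The first 3 belong to genes with a promoter region higher in Astrocytes, and the others to genes near regions higher in NSCs.
rno-miR-759: gCAGAGUGcaaacaauuuugac
rno-miR-182: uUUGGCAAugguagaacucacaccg
rno-miR-206-3p: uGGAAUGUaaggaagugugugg
rno-miR-362-3p: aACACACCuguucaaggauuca
rno-miR-501-5p: aAUCCUUUgucccuggguga
rno-miR-501-3p: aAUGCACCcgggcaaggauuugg
rno-miR-3560: cAAAUCCUugcccgggugcauu
rno-miR-365-3p: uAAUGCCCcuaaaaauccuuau
rno-miR-128-3p: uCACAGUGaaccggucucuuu
No seed was shared among these 9 sequences. A single region higher in NSCs on chromosome X (16115891 to 16116448) was annotated to Mir362, Mir501 and Mir3560 at once, with a fold of 19.9 and a score of 156 in the authors' deposited table. NSCs had a fold over input of 20.1 there, Neurons one of 12.6, and Astrocytes no peak. rno-miR-3560 lies on the minus strand at X 17927239 to 17927260 of GRCr8, opposite rno-miR-501-3p at 17927239 to 17927261 on the plus strand, so these 3 genes are not separate observations. In the authors' deposited table Mir759 had a fold of 14.6, Mir182, of the sensory miR-183 cluster, 13.9, and Mir206, a muscle miRNA, 11.4 for Astrocytes, with Astrocyte folds over input of 10.4, 12 and 10.9. Mir365b had a fold of 11.2 and Mir128-2, the source of the brain-enriched miR-128, 9.92 for NSCs in the authors' deposited table, both without a peak over input in any cell type. The region of the muscle miRNA pair Mir133a and Mir3582 (chromosome 18, 2050131 to 2051023) had folds over input of 91.5 in NSCs, 49.5 in Neurons and 36.1 in Astrocytes in the authors' deposited table.

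Of 23154 protein-coding reference genes, 19.4% had a region higher in Astrocytes (4490 genes) and 23.3% one higher in NSCs (5398), and 2282 had both. Promoter regions were held by 1.92% and 2.23% (444 and 516 genes). The share was higher in longer genes: in the shortest quartile of genes 3.01% and 4.08% had a region, then 8.55% and 10.5%, 18.2% and 22.6%, and in the longest quartile 47.8% and 56.1%. In the longest quartile 33.3% of genes had regions in both directions. Regions in protein-coding genes were higher in Astrocytes in 42.3% of cases (41.5 to 43.0), 7292 against 9964, and this share is the one to hold gene lists against.

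Genes with many regions seldom took 1 direction. Among 217 genes with at least 10 regions, the median share higher in Astrocytes was 40%, the highest 75%, and 31 genes were above 50%. None of the 217 had all of its regions higher in Astrocytes, and 1, Pip5k1b, a lipid kinase chosen here after its values were seen, had all higher in NSCs (10 against 0). The most regions higher in Astrocytes lay in Galntl6 (20 against 17 higher in NSCs), Csmd1, a complement regulator (20 against 22), Ctnna3, an alpha-catenin (19 against 22), and Dpp10, a potassium channel partner (15 against 26). These are among the longest genes, and NSC regions were as frequent in them. The most regions higher in NSCs lay in Dpp10, Csmd3 (22 against 8), Naaladl2 (22 against 8), Ctnna3 and Csmd1, followed by Dpyd, St6galnac5, Gpc5, Sgcz and Lrp1b.

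The largest excess for Astrocytes was in Zfp469, a zinc finger gene, with 7 regions against 0, followed by Ptprt, a receptor phosphatase (11 against 5), Arhgap26 (9 against 3) and Dock2, an exchange factor of immune cells (7 against 1). Sgcd had 8 against 3, Pcsk5 7 against 2 and Cntn3, a contactin, 6 against 1. Cacna1c, the pore subunit of an L-type calcium channel, had 7 against 2. For NSCs the excess was largest in Csmd3, Naaladl2, Gpc5, a glypican (20 against 7), and Sgcz (20 against 7). Il1rapl2 and Tenm2, both synaptic adhesion genes, had 18 against 8 each, Erbb4, a neuregulin receptor, 15 against 5, and Grin2a, an NMDA receptor subunit, 13 against 3. Ppil1 and Thumpd1 also met the rule, but the files' annotation gives these genes an extent far longer than the reference gene. The longer extent was used as the length of every gene, so other genes named here may be affected too.

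Per length, Prtfdc1 (7 regions in 105 kb, 6.65 per 100 kb) and Slc1a1 (5 in 80.1 kb, 6.24 per 100 kb) were the densest genes for Astrocytes, with 2 regions higher in NSCs each. Slc1a1 thus combined a high score with several separate regions. Ptprb, a vascular phosphatase, Frk (5 against 0), Spetex-2C (5 against 0), Klhl2, Shc3, a neuronal adaptor, Mipep, Tox2 and Synpo2 followed, from 4.78 to 3.89 per 100 kb. For NSCs, Rnf115 had 7.38 per 100 kb, Hlf, a circadian transcription factor, 6.80 (5 against 0), and Zfp182 6.76 (5 against 0). Sult2a6, a sulfotransferase, had 10 against 1, and Pax2, a transcription factor of the midbrain and kidney, 5 against 0. Atxn10, Tsga10, Tbc1d9, Cast and Smad3, a TGF-beta effector, followed, from 4.86 to 4.54 per 100 kb.

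The 27 gene lists covered cell types, signalling, metabolism and neuronal function. Together their 623 matched genes had 42.3% of regions higher in Astrocytes (39.8 to 44.7; 681 against 930), the same as all protein-coding genes. Of the 623 list genes, 273 had a region higher in Astrocytes and 295 one higher in NSCs. Among all protein-coding genes the shares were 19.4% and 23.3%, and in the longest quartile of genes 47.8% and 56.1%. Several lists are of long genes, and no number at like length was computed for the lists together. Nothing is therefore read from these totals. Beside each count below stands the number that genes of like length would give at the share of their length decile. Length is not matched within a decile, and the longest one runs up to 2975 kb. For lists of very long genes, such as glutamate receptors (median 360 kb), that number may be too low. An excess over it in such lists may thus come from length alone, which was not tested.

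Both astrocyte lists carried regions in either direction. Of 25 astrocyte markers, 5 had a region higher in Astrocytes and 4 one higher in NSCs, where like length gave 5.65 and 6.73. Their 39 regions split 12 against 27, and Gpc5 alone held 7 and 20 of these. Acsl6, an acyl-CoA synthetase, and Aldh1l1, a folate enzyme, had 1 against 0, Slc1a3, the glial glutamate transporter, 2 against 2, Slc4a4, a bicarbonate transporter, 1 against 4, and Sparcl1 0 against 1. In the authors' deposited table the largest fold among the markers higher in Astrocytes was 17.3 in Gpc5 (chromosome 15, 100412746 to 100413184, intron), then 13.2 in Slc1a3 and 9.97 in Acsl6. Of 26 gliogenic factors, 12 had a region higher in Astrocytes and 11 one higher in NSCs (8.13 and 9.60 at like length), with 16 against 23 regions. Nfia, a factor of astrocyte specification, had 3 against 1, Nfib 0 against 3, Zbtb20 3 against 4, and Smad1 0 against 2. In the LIF pathway, Jak1, Jak2, Il6st and Lifr had 1 against 0 each, while Stat3 had 0 against 1. Lif, Cntf and Cntfr had no region in either direction. Zbtb20 had the largest fold of this list for Astrocytes, 19.9, in the authors' deposited table (chromosome 11, 62225294 to 62225809, intron).

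Of 22 stem and progenitor genes, 5 had a region higher in Astrocytes and 7 one higher in NSCs (4.86 and 5.68 at like length). The RNA-binding factors Msi1 and Msi2 had 1 against 3 and 2 against 4 regions, Egfr 2 against 1, and Tead1 2 against 2. Cell cycle genes gave 9 and 8 of 34 (5.51 and 6.63 at like length), with 11 against 10 regions. Cdk2 had 2 against 0 and Ccnd1, cyclin D1, 0 against 2; the Ccnd1 region had a fold of 17.9 and that of Mcm5, a helicase subunit of replication, 17.3 for Astrocytes in the authors' deposited table. Of 31 neuronal fate and structure genes, 14 and 13 had a region (11.2 and 12.8), with 37 against 41 regions. Elavl2, a neuronal RNA-binding gene, had 2 against 0, Ank2, an ankyrin, 4 against 1, Sox5 4 against 7, and Dcx, of migrating young neurons, 1 against 3.

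Markers of other cell types carried regions in both directions. Microglia genes had 3 of 14 with a region higher in Astrocytes and 1 with one higher in NSCs (2.16 and 2.62 at like length), with Ptprc, the leukocyte antigen CD45, at 4 against 1 regions and Spi1 and Tmem119 at 1 against 0. Their 6 against 1 regions had an interval of 42.1% to 99.6% higher in Astrocytes. Vessel genes had 3 and 7 of 11 (3.77 and 4.48) and oligodendrocyte genes 3 and 6 of 15 (3.31 and 3.94). These are DNA marks and not expression, so the counts do not measure how many such cells a culture held.

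Among signalling lists, Notch genes had a region higher in Astrocytes in 12 of 21 cases, where like length gave 6.49, and one higher in NSCs in 8, where it gave 7.50. The genes with regions only higher in Astrocytes included the receptor Notch1, the ligands Dll1 and Dll3, the transcription factor Rbpj and the coactivator Maml1. The ligand Jag1 and Hey2 had a region higher in NSCs only. The regions split 26 against 27, since Maml3 (9 against 11), Maml2 (3 against 5) and Dner (1 against 4) held many of either kind. Growth factor receptors had 8 and 13 of 24 (9.07 and 10.6 at like length), and their 70 regions split 21 against 49, with 30% higher in Astrocytes (19.6 to 42.1). Erbb4 gave 5 against 15 of these, and Igf1r had 0 against 4, Insr 1 against 4, the neurotrophin receptors Ntrk2 and Ntrk3 1 against 4 and 1 against 5, and Mertk 0 against 3. Alk went the other way, with 9 against 7. The largest NSC folds of the list were 18.6 in Erbb4 (chromosome 9, 75933061 to 75933433, intron) and 17.3 in Ntrk2 (chromosome 17, 6118741 to 6119293, exon) in the authors' deposited table. Wnt genes had 11 and 14 of 28 (10.1 and 11.9) and Hedgehog genes 6 and 6 of 14 (4.69 and 5.52).

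Channel and receptor genes, many of them long, held regions in both directions. Sodium and calcium channels had 46 regions higher in Astrocytes against 40, 53.5% (42.4 to 64.3), in 17 and 15 of 23 genes (12.9 and 14.6 at like length). Cacna1c (7 against 2) and Cacna1d (6 against 2), both L-type calcium channels, leaned to Astrocytes, and Cacna1e (3 against 5) did not. Scn1a, a sodium channel, had the largest fold of the list for Astrocytes, 20.8 with a score of 209 (chromosome 3, 52467790 to 52468134, intron), in the authors' deposited table. Glutamate receptors had 20 and 20 of 24 genes with a region (13.3 and 15.1 at like length), and 60 against 96 regions, 38.5% (30.8 to 46.6). Grin2a (3 against 13) and Grik2, a kainate receptor subunit (3 against 11), gave much of that. Grm8 had regions of large fold in both directions, 22.6 for Astrocytes and 19.9 for NSCs, 14.7 kb apart in the files' coordinates, in the authors' deposited table. Potassium channels had 18 and 21 of 28 genes (15.2 and 17.3) and GABA and glycine genes 15 and 18 of 23 (11.3 and 13.0). Of these, Kcnt2 (0 against 5), Kcnq1 (2 against 7) and Kcnma1 (6 against 11) held more NSC regions and Kcnk10 (4 against 1) more Astrocyte regions.

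Of 36 axon guidance genes, 29 carried a region higher in Astrocytes (21.6 at like length) and 25 carried one higher in NSCs (24.4), with 89 against 94 regions, 48.6% (41.2 to 56.1). Sema6a (4 against 0), Ephb1 (7 against 3) and Epha6 (3 against 1) leaned to Astrocytes. Epha3 (2 against 6), Robo1, a Slit receptor (3 against 7), and Ntn1, netrin 1 (1 against 4), leaned to NSCs. Cadherins and protocadherins had 22 and 15 of 25 (15.3 and 17.3), though 49 against 71 regions. Cdh1, Cdh2, Cdh7, Cdh11, Cdh22, Pcdh10, Pcdh19 and Fat1 had regions higher in Astrocytes alone, while Pcdh9 (7 against 13), Pcdh15 (2 against 7) and Cdh8 (1 against 4) held the more frequent NSC regions. Pcdh10 had the largest Astrocyte fold of the list, 21.3, in the authors' deposited table (chromosome 2, 137005612 to 137006137, intron). Synaptic adhesion and scaffold genes had 22 and 24 of 32 (16.5 and 18.8), with 103 against 137 regions. Nrxn3 had 7 against 7, Cntnap2 12 against 18 and Cntn4 2 against 7.

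Redox enzymes had 4 and 6 of 25 genes with a region (4.19 and 5.14 at like length). The 3 thioredoxin reductases differed in direction: Txnrd3 had 2 regions higher in Astrocytes, Txnrd1, the cytosolic enzyme, 1 higher in NSCs, and Txnrd2, the mitochondrial enzyme, 3 higher in NSCs. The Txnrd2 region of the largest fold (chromosome 11, 86703585 to 86703930, intron) had 11.96 in the authors' deposited table. Of 14 adenine methylation enzymes, 1 and 3 had a region (2.97 and 3.63). Fto, an RNA demethylase of 6-methyladenine, had 4 against 3, and Mettl16 and Ythdc1 0 against 1, while Alkbh1, Mettl3, Mettl4 and Mettl14 had none. Respiration genes had 4 and 9 of 25 (3.20 and 3.86), ribosomal protein genes 1 and 3 of 29 (1.45 and 1.77), lipid and sterol genes 6 and 10 of 25 (6.26 and 7.54), matrix genes 14 and 19 of 30 (14.4 and 16.7), and chromatin genes 12 and 14 of 30 (12.4 and 14.6).

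**Figure D3:**
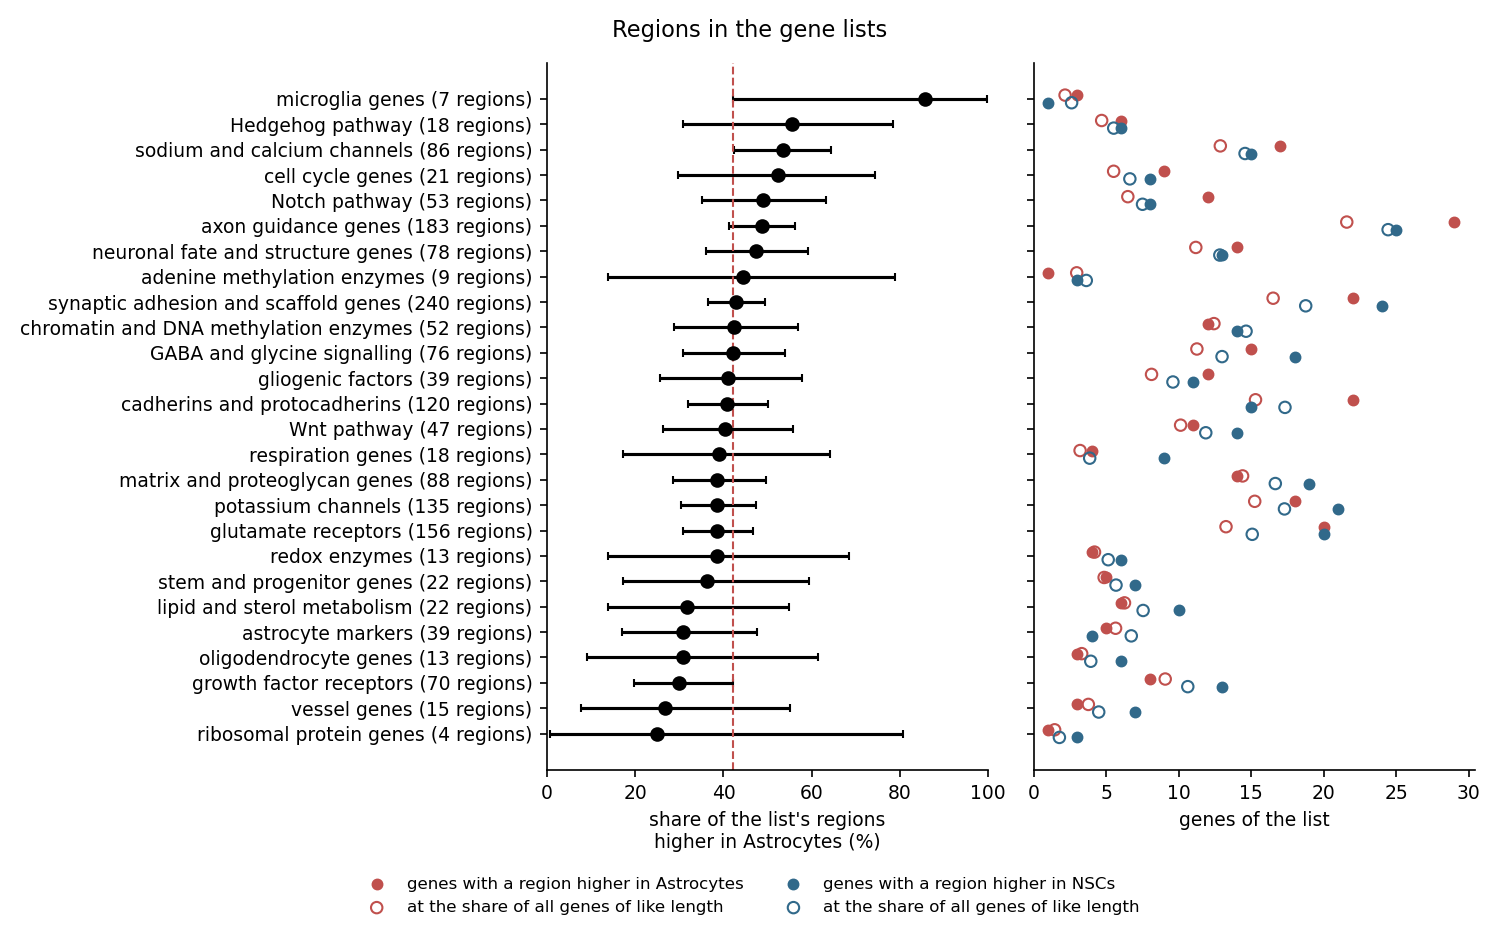
Left, percent of each list's regions that were higher in Astrocytes, with exact 95% intervals and a dashed line at 42.3%, the share over all protein-coding genes. Right, number of genes with a region in each direction (filled) and the number at the share of all genes in the same length deciles (open). Axon guidance genes reached 29 against 21.6 for Astrocytes, but their median length was 202 kb and length is not matched within the longest decile.

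Along the chromosomes, chromosome 1 had the lowest share of regions higher in Astrocytes of any chromosome but Y. It held 2004 regions higher in Astrocytes against 3747 higher in NSCs, 34.8% (33.6 to 36.1), where all others together had 41.0% (40.5 to 41.4). The other autosomes ranged from 38.3% on chromosome 18 to 44.4% on chromosome 6, chromosome X had 38.1% (36.2 to 40.1), and Y had 3 against 11 regions. Both directions contributed: on chromosome 1 there were 13.3 NSC regions per Mb against 11.3 elsewhere, and 7.09 Astrocyte regions per Mb against 7.87. Peaks over input showed no such gap, since Astrocytes gave 48.6% of the peaks of both cell types on chromosome 1 (48.0 to 49.2) and 48.8% elsewhere. At 7326 places on chromosome 1 where both cell types had a peak, the ratio of the Astrocyte to the NSC fold over input had a median of 1.03, and at 57831 places elsewhere 1.02. The direct comparison and the peaks over input therefore differed on this chromosome, and the reason was not tested.

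**Figure D4:**
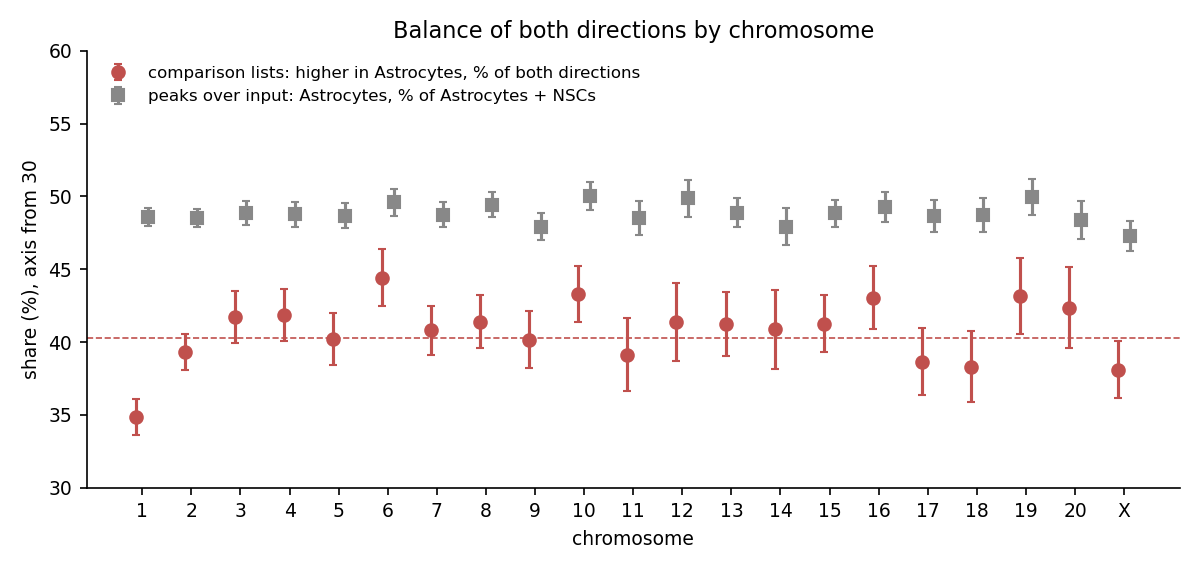
Percent of regions higher in Astrocytes per chromosome (red, dashed line at the overall 40.3%) and Astrocyte percent of the peaks of both cell types over input (grey), with exact 95% intervals and an axis that starts at 30; Y is left out for its 14 regions. Chromosome 1 lies at 34.8% in the comparison and at 48.6% in the peaks over input.

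The shift was spread along chromosome 1. Of its 28 windows of 10 Mb, 27 lay below the overall share of 40.3%, with a median of 34.7% and a span from 26.5% to 43.1%. The exact interval lay wholly below 40.3% in 9 of the 28 and wholly above it in 0. On the other chromosomes 102 of 246 windows with at least 100 regions lay below it, with a median of 41.2% and a span from 29.8% to 54.6%. There the interval lay wholly below in 9 and wholly above in 15. The lowest window of all was on chromosome 1 (60000001 to 70000000, 39 against 108 regions), and the highest on chromosome 6 (40000001 to 50000000, 106 against 88). By kind of region, the chromosome 1 share and the share elsewhere were 36.9% and 40.8% in peaks of the own cell type only, 37.7% and 48.7% in peaks of both, and 27.7% and 37.4% without an own peak. The gap was thus present in all 3 kinds. Of all regions, 10.7% lay on chromosome 1, while the lists held 0% (axon guidance genes, cadherins, sodium and calcium channels) to 30.8% (oligodendrocyte genes) of their regions there, with 15.7% in growth factor receptors and 10.9% in glutamate receptors.

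**Figure D5:**
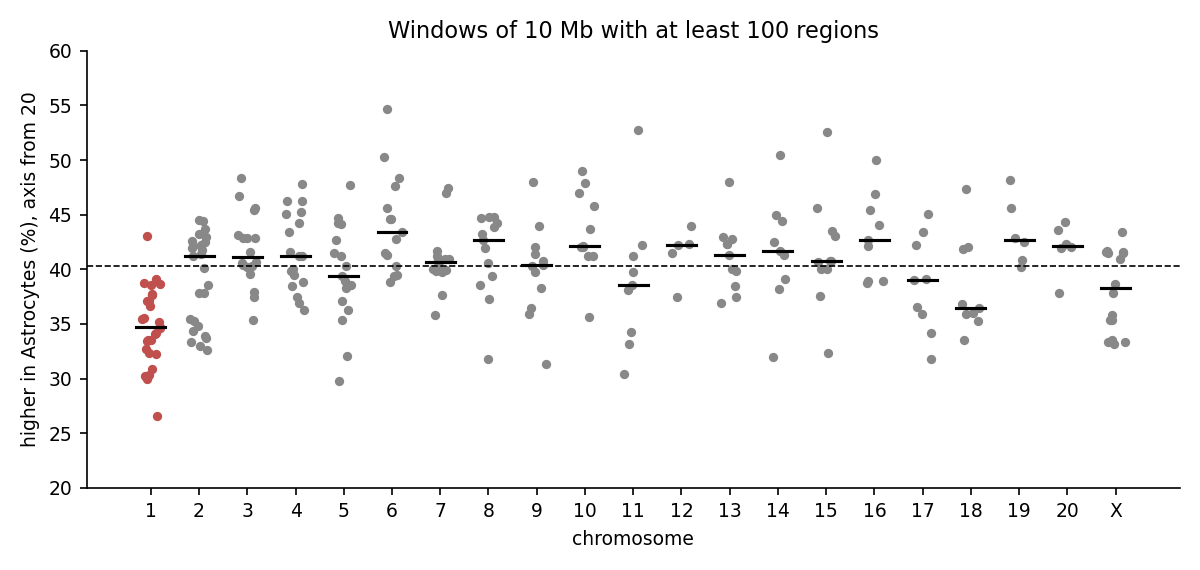
Percent of regions higher in Astrocytes in windows of 10 Mb with at least 100 regions, by chromosome (points, chromosome 1 in red), with the median of each chromosome as a bar and the overall 40.3% dashed; the axis starts at 20. Of 28 windows on chromosome 1, 27 lie below the dashed line.

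Neighbouring regions took the same direction more often only at short range. Of 1153 pairs of successive regions under 1 kb apart, 66.3% had the same direction (63.5 to 69.1), and of 1958 pairs from 1 to 3 kb apart 60.4% did (58.2 to 62.5). Beyond 3 kb, 52.1% of 50640 pairs did (51.6 to 52.5), against 51.9% if the directions were mixed over the genome. The median gap was 33.3 kb. Pairs of successive regions cannot show whether wider stretches lean to 1 direction, as chromosome 1 did. Regions of opposite direction overlapped in 3 cases.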

How the data were processed

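DNA of rat NSCs, Neurons and Astrocytes was immunoprecipitated with an anti-6mA antibody and sequenced, 1 library per cell type, 5 libraries in all with the inputs of NSCs and Neurons. Reads were aligned with BWA, per the submitters' processing notes. Its version, the genome build, the peak caller's version, the filters and the annotation were not given in the sources used here. A deposited summary holds each library's read count, with the mapped part as a percent. It has 1 row without a sample, an astrocyte input, that was not used; the authors' Astrocyte peaks name such an input as background. The authors' lists give, per the file headers, a score of 10 times the −log10 p-value per region (at least 50, p of 1e-05) and a fold, a ratio of the first library to the second. The authors compared single libraries, and no replicates were pooled.

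Lists were read as deposited. Those of this comparison are filed with the Neurons sample and were taken as Astrocytes against NSCs from their names. Of the regions higher in Astrocytes 80.2% had the exact coordinates of an Astrocyte peak over input, and of those higher in NSCs 32.5% those of an NSC peak, so the directions may differ in how they were made. Overlap means at least 1 bp. Windows were 10 Mb with at least 100 regions. All regions lay on 22 named chromosomes, and chromosome length was taken from the files' own regions. Symbols were matched to RefSeq protein-coding genes of GRCr8 by symbol or synonym on the same chromosome: 7432 of 7584 names that are not placeholders matched (98.0%), and 32 symbols whose reference gene lies on another chromosome were set aside. Of 624 genes in 27 lists, 623 matched. GRCr8 served for names, lengths and printed sequences, never for placing regions. A gene's length was that of the reference or the stretch spanned by its peaks in the files, whichever was longer, a definition chosen after values were seen.

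Genes were named per direction: the 10 largest folds, the 10 highest scores, the 5 largest folds in promoters, in exons and in CpG islands or shores, the 10 genes with most regions, with the largest excess and, above 20 kb and with at least 5 regions, with most regions per 100 kb, up to 3 members per list, and both title genes; placeholder names (LOC, RGD, AABR, NEWGENE, Lnc and -ps names) were skipped. A few genes that met the rule are not reported here. Further members of lists are given by their counts. The members and lists were chosen with earlier results of these data known. Scripts used Python 3.11.15, pandas 2.3.3, numpy 2.4.6, scipy 1.17.1 and matplotlib 3.10.9, and the overlap and merging steps were tested on simulated data. Alternatives were a stricter score (62.2), a stricter fold (9.5), regions in a peak of their own cell type, 50% overlap, gene bodies alone, merging within 1 kb and unplaced sequences.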

Additional observations from a re-analysis of the deposited data

How the results depend on the processing

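No paired analysis was possible because each cell type had 1 library. Of 65 values recomputed under alternatives, 32 moved by less than their counting interval (counts: by less than 1.5 times) and 33 by more. Gene bodies alone and merging within 1 kb moved none of the values recomputed under them. Adding unplaced sequences could move none, since all regions lay on the 22 named chromosomes. Its 3 values are among the 32 and show nothing about how firm the results are. At the median score or above, 10915 regions were higher in Astrocytes and 15979 in NSCs, in 2730 and 3222 genes, promoters held 3.55% and 3.04%, and a Neuron peak lay on 41.4% and 35.6%. For NSCs, gene bodies then held 34.6% and exons 3.67%. At the median fold or above, 11785 and 15187 regions (43.7% higher in Astrocytes) lay in 2826 and 3213 genes, exons held 4.66% of the Astrocyte regions, a Neuron peak lay on 22.5% and 19.6%, and chromosome 1 had 37.7% against 44.4% elsewhere. With regions in a peak of their own cell type, 41.4% were higher in Astrocytes, gene bodies held 36.3% and 33.2%, exons 3.796% and 2.97%, promoters 3.25% and 2.93%, a Neuron peak lay on 40.9% and 34.9%, and chromosome 1 had 37.0% against 42.0%. With 50% overlap, a Neuron peak lay on 32.9% and 26.4%. The order of both directions was the same in each of these pairs. The cause was not tested, beyond the smaller number of regions under stricter minimums. With 1 library per cell type, differences between cell types and between cultures or preparations cannot be told apart.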
